A study of Mus musculus with 2 samples.

Results

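The regions described here are the EP300 peaks of newborn mouse liver that lay at the start site of a noncoding RNA gene and at no start site of a protein-coding gene. A peak was included when its summit lay within 1 kb of the transcription start site (TSS) of a GENCODE M21 transcript of a gene of any type other than protein_coding, and over 1 kb from every TSS of a protein-coding gene. Of 26844 peaks on chromosomes 1 to 19 and X in the optimal list, 951 met this rule (3.54%, 95% Clopper-Pearson interval 3.33 to 3.77%), at 799 genes. They are called noncoding start-site peaks below. A further 817 peaks lay within 1 kb of a noncoding and of a coding TSS, which is 46.2% of the 1768 peaks near a noncoding TSS, and the rule leaves them out.

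The data are chromatin immunoprecipitation sequencing (ChIP-seq) peak lists for EP300 from the liver of mice of strain B6NCrl at age 0 days (P0), untreated as far as the labels say, with sex not collected. There was 1 group of 2 replicates, with no second condition. By the labels the replicates come from the same biosample and the same donor, so their spread is that of libraries and immunoprecipitations, not of animals. The optimal list keeps peaks by the irreproducible discovery rate (IDR), and a shorter conservative list held 23673 peaks on the same chromosomes. The lists of the separate replicates held 300000 peaks each, with no read counts, so the depth is unknown. A signal value is the authors' score of peak strength with no stated unit. It is compared here within a list only. A replicate's value for a peak is that of the overlapping peak in the replicate's list with the nearest summit. Summits lay within 10 kb of a TSS of 6 of 6 hepatocyte marker genes and 6 of 6 erythroid marker genes, against 0 of 2 muscle and 0 of 2 neuron genes. The share of all coding genes at 10 kb is not given here, and at 1 kb it was 24.0% of 21755, so these few genes are a description. Newborn liver still holds blood-forming cells, and the peak lists cannot say which cell type a peak came from.

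EP300 (p300) is an acetyltransferase that transcription factors bring to enhancers and promoters, where it acetylates histones. It binds no DNA sequence of its own, and its peaks are used as a map of active regulatory DNA. The genes at these peaks are of several kinds. Long intergenic noncoding RNAs (lincRNAs), antisense transcripts and processed transcripts are made by RNA polymerase II from promoters of their own. Small RNAs are of 2 kinds in the annotation. For known genes of spliceosomal snRNAs, 7SK and Y RNAs the annotated start is where transcription starts. Of the 41 peaks at the snRNA class, 7 lay at genes with a Rnu symbol, and the starts of its other gene models were not checked. For microRNAs (miRNAs) and most snoRNAs it is the end of a hairpin or of a mature RNA cut from a longer host transcript, whose promoter can lie far away. TEC genes are gene models that GENCODE marks as still to be tested by experiment, and pseudogenes are copies of genes, whose annotated start is the end of the copied sequence.

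The DNA under 12 of these summits shows what such a region looks like, at some of the strongest peaks and at the starts of known RNAs. These examples were chosen after their values were seen: 4 from the strongest peaks, 5 at known RNA genes of the list described below, and 3 others, at Rnu11, at 2410080I02Rik and at Frmd8os, which starts beside Neat1 on the other strand. Each window reaches 50 bases to either side of the summit and was taken from the GRCm38 (mm10) genome, written 5′ to 3′ on the strand of the noncoding transcript. Capitals mark every match, on either strand, to one of 17 consensus motifs.
Gm31452, chr13:107063599-107063699, + strand: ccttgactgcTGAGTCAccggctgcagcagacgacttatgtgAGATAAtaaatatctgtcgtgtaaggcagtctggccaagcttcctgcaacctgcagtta
Gm28857, chr1:130741423-130741523, - strand: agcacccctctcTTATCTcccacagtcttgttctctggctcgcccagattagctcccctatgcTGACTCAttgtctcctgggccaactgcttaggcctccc
Gm12529, chr4:59533396-59533496, + strand: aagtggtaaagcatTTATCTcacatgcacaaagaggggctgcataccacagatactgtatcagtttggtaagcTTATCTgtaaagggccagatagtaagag
Gm27252, chr7:63897011-63897111, + strand: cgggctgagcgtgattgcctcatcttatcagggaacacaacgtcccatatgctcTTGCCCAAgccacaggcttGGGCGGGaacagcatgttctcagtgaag
Malat1, chr19:5802637-5802737, - strand: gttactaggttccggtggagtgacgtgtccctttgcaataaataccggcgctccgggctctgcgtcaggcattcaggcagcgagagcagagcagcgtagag
Frmd8os, chr19:5845531-5845631, + strand: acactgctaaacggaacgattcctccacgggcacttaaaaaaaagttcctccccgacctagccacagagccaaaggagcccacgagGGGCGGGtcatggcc
Pvt1, chr15:62223268-62223368, + strand: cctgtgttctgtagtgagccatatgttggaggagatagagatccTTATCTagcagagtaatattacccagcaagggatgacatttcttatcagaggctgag
Mir142hg, chr11:87755522-87755622, + strand: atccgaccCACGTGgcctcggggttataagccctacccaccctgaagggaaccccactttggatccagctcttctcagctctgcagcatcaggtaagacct
Mir144, chr11:78072571-78072671, + strand: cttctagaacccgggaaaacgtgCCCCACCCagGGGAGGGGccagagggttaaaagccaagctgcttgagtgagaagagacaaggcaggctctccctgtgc
Rn7sk, chr9:78175709-78175809, - strand: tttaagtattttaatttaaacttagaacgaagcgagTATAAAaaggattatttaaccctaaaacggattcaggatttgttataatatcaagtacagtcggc
Rnu11, chr4:132270171-132270271, - strand: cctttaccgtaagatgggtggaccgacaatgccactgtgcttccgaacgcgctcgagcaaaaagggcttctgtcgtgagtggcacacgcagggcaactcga
2410080I02Rik, chr19:23135029-23135129, + strand: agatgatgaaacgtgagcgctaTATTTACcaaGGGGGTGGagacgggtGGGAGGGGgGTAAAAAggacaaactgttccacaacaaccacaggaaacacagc
The Gm31452 and Gm28857 windows each hold a match to the GATA motif, AGATAA or TTATCT read on the other strand, and an AP-1 or NFE2 match (TGANTCA). Gm12529 holds a pair of GATA matches and Pvt1 a single one. The window at Mir144 holds KLF matches (CCNCNCCC), that at Frmd8os an SP match (GGGCGGG), and that at Rn7sk a TATA match. The 2410080I02Rik window, at a lincRNA, holds FOXA (TNTTTAC) and KLF matches, and that at Mir142hg an E-box (CACGTG). The windows at Malat1 and Rnu11 hold none of the 17 motifs.

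Of 38 miRNA genes that were the nearest noncoding gene of a peak, 23 were in the RefSeq miRNA table (GRCm38.p6). Mature sequences are given for one arm of each of 9 of the well-known miRNA genes with a peak, with the seed, bases 2 to 8, in capitals.
miR-144-3p (Mir144), chr11:78073047-78073066, + strand: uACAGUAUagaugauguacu
miR-451a (Mir451a), chr11:78073186-78073207, + strand: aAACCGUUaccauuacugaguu
miR-101b-3p (Mir101b), chr19:29135338-29135356, + strand: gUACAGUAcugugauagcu
miR-142a-3p (Mir142), chr11:87756903-87756925, + strand: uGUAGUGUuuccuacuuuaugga
miR-22-3p (Mir22), chr11:75463772-75463793, + strand: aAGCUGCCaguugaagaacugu
miR-210-3p (Mir210), chr7:141221407-141221428, - strand: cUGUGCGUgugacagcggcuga
miR-23a-3p (Mir23a), chr8:84208563-84208583, + strand: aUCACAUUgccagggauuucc
miR-27a-3p (Mir27a), chr8:84208727-84208747, + strand: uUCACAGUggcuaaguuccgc
miR-24-3p (Mir24-2), chr8:84208875-84208896, + strand: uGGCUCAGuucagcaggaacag
The 17 mature miRNAs of these 9 genes had 17 different seeds. The seeds of miR-101b-3p and miR-144-3p share a run of 6 bases (ACAGUA), 1 position apart, and those of miR-23a-3p and miR-27a-3p both begin with UCACA.

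Long noncoding genes made up most of the set. By the type of the gene with the nearest noncoding TSS, 355 of the 951 peaks (37.3%, interval 34.3 to 40.5%) were at lincRNAs, 153 (16.1%) at antisense transcripts, 110 (11.6%) at TEC genes and 74 (7.78%) at processed transcripts. Another 14 were at sense intronic transcripts and 3 at bidirectional promoter lncRNAs, so 599 (63.0%) lay at the long noncoding classes without TEC. Pseudogenes took 69 peaks for the type processed_pseudogene, copies made through RNA, and 37 for other types, of which 15 were processed copies annotated as transcribed. Small RNAs took 42 peaks for miRNA, 41 for snRNA, 18 for miscellaneous RNA (misc RNA), 16 for snoRNA and 8 for rRNA and scaRNA genes. Immunoglobulin or T cell receptor segments took 9, and pseudogenes of such segments 2.

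The peaks spread over many genes. Of 799 genes, 127 had at least 2 peaks, and the highest number was 5, at Frmd8os. Conversely 90 peaks lay within 1 kb of at least 2 noncoding genes, up to 5, and each was counted once under the nearest. Of all 951, 204 (21.5%) overlapped another peak of the list, so neighbouring summits are not independent of each other.

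Counted by gene, few noncoding genes had an EP300 summit at their start. Of 28937 noncoding genes with a TSS over 1 kb from every coding TSS, 844 had a summit within 1 kb of such a TSS, a background of 2.92%, against 24.0% of 21755 protein-coding genes. Processed transcripts reached 12.03% (54 of 449, interval 9.17 to 15.4%), lincRNAs 6.00% (295 of 4913, 5.36 to 6.71%) and antisense transcripts 5.99% (112 of 1870, 4.96 to 7.16%). The 3 classes lay above the background for all of these noncoding genes and below protein-coding genes. TEC genes stood at 3.55% (103 of 2901), miRNAs at 2.92% (54 of 1850) and snRNAs at 2.63% (35 of 1329), near the background. Among classes with at least 200 such genes, processed pseudogenes were lowest, at 0.740% (72 of 9732, 0.579 to 0.931%). As a yardstick, 1.79% of the length of these chromosomes lay within 1 kb of a summit. Genes with more annotated start sites have more chances to be counted, and these shares were not adjusted for that.

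**Figure D1:**
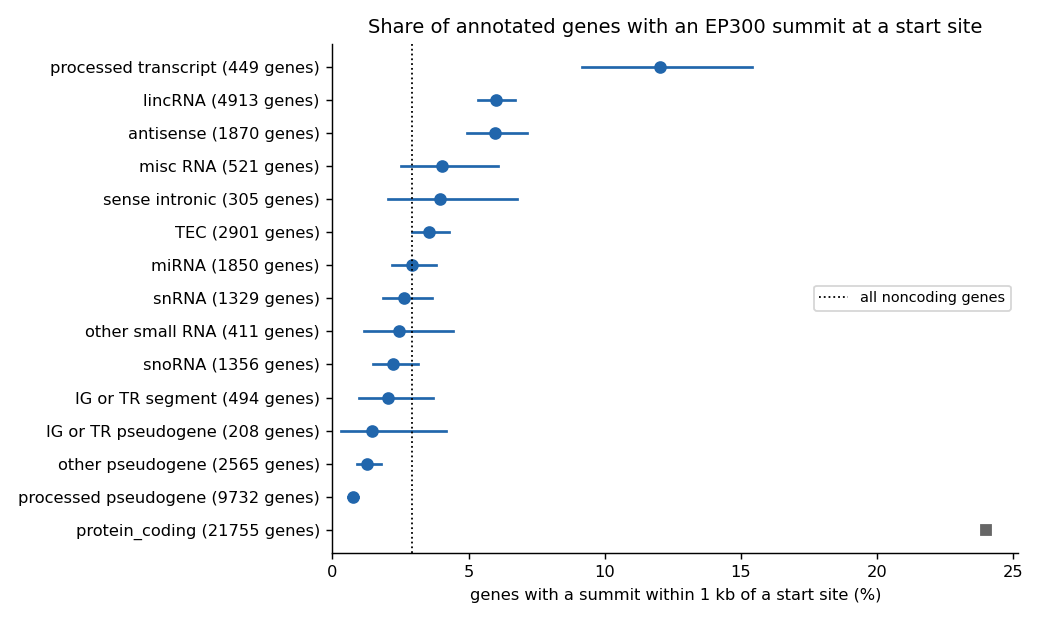
Share of annotated genes with an EP300 summit within 1 kb of a start site, by gene class, for noncoding genes with every start site over 1 kb from coding ones. Circles are shares with 95% Clopper-Pearson intervals, the square is protein_coding genes (24.0%), and the dotted line is all such noncoding genes (2.92%). Among the noncoding classes drawn, those with at least 200 such genes, processed transcripts lie highest at 12.03% and processed pseudogenes lowest at 0.740%.

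In strength, the noncoding start-site peaks sat close to all other peaks. Their median signal value was 38.5 (quartiles 27.1 and 62.2, highest 529), against 37.2 at peaks within 1 kb of a coding TSS (coding promoter peaks, 6294), 38.7 at peaks over 1 kb from any TSS (distal peaks, 19599) and 38.3 over all peaks. In replicate 1 the median was 27.0, against 26.6 at coding promoter and 26.3 at distal peaks. In replicate 2 it was 13.5, against 12.5 and 14.0. The log2 difference from coding promoter peaks was 0.05, with 0.02 in replicate 1 and 0.11 in replicate 2 (SD of the 2 replicates 0.06), and that from distal peaks was -0.01, with 0.04 and -0.06 (SD 0.07). Both differences were no larger than the spread between the replicates, and the second differed in sign between them.

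The peaks also recurred in the replicates about as often as other peaks. Of the 951, 908 (95.5%) overlapped a peak in each replicate's own list, and across these the replicates' values had a Spearman rho of 0.675 (n = 908 peaks), against 0.695 over all 25702 peaks found in both. These points share libraries and are not independent samples. The optimal list was made from both replicates, and each replicate's own list held 300000 peaks. A high overlap is therefore built in and is no separate check. In the conservative list 711 (74.8%, interval 71.9 to 77.5%) had a peak of identical position and summit. The same held for 68.1% of coding promoter peaks, 76.4% of distal peaks and 74.4% of all peaks. Peaks there with other coordinates were not counted, and that list itself held 857 peaks that met the rule. Among the highest 26844 peaks of both replicates stood 671 of the 951 (70.6%), against 64.9% of coding promoter peaks, 68.8% of distal peaks and 67.9% of all. The 10% of peaks with the highest signal held 89 (9.36%), against 6.51% of coding promoter and 11.2% of distal peaks.

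Processed pseudogenes had the highest median signal among the larger classes in the optimal list. Their 69 peaks had a median of 55.5, against 38.5 over all noncoding start-site peaks. The same peaks had 37.1 in replicate 1 and 17.7 in replicate 2, against 27.0 and 13.5. They were picked in the optimal list, so these replicate values are no separate check. Among the highest peaks of the own list of replicate 1, processed pseudogenes had 32.9, against 26.8 over all noncoding start-site peaks and 36.8 at snRNAs. In that of replicate 2 they had 13.4 (88 peaks), against 13.3 over all, 14.1 at lincRNAs and 15.1 at snRNAs. The high median was thus not seen there. In the optimal list lincRNA peaks had a median of 39.9, processed transcripts 38.8 and snRNA and snoRNA peaks 38.6 each. Antisense transcripts had 37.1 and TEC genes 36.9. At miRNAs the median was 33.7 and at misc RNA 31.8. The quartiles of all of these classes overlapped (processed pseudogenes 32.4 to 79.6, miRNAs 26.8 to 52.1). Of the processed pseudogene peaks 85.5% (interval 74.96 to 92.8%) were in the conservative list with identical position and summit, against the background of 74.4%.

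**Figure D2:**
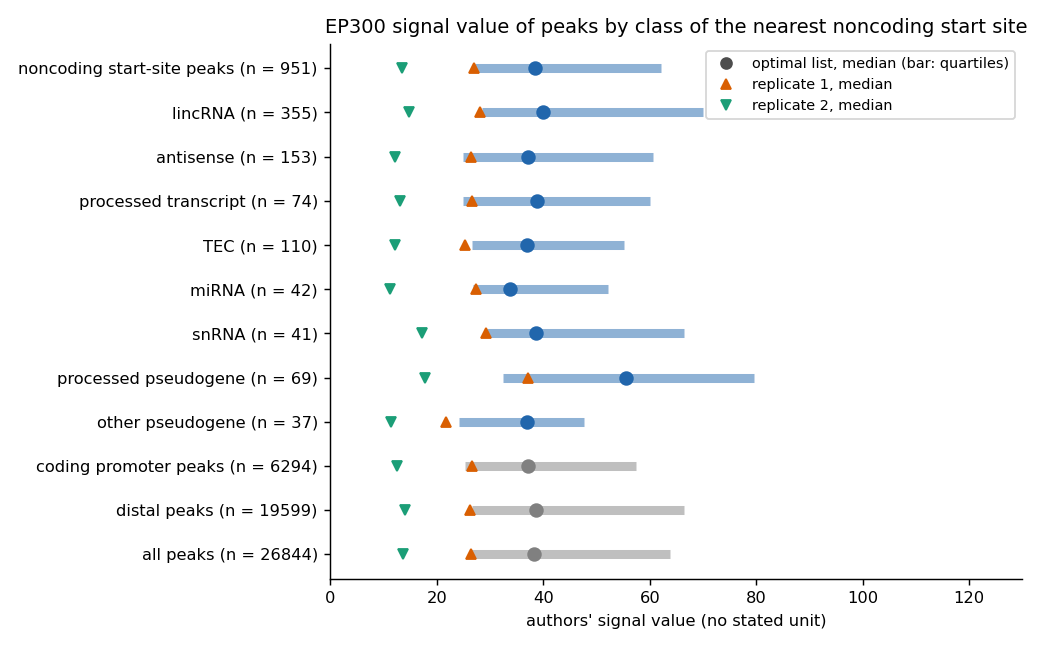
The authors' signal value (no stated unit) of EP300 peaks by class of the nearest noncoding start site, with coding promoter, distal and all peaks below. Circles and bars are the median and quartiles in the optimal list and triangles the medians of the same peaks in each replicate; the 951 noncoding start-site peaks have a median of 38.5, against 37.2 at coding promoters, and processed pseudogenes stand highest at 55.5.

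EP300 summits gathered just upstream of the start site in some classes and not in others. Of the 951 summits 386 (40.6%, interval 37.5 to 43.8%) lay within 200 bp of the nearest noncoding TSS, against 61.1% of coding promoter peaks. An even spread over 1 kb around a single start site would put 20% there. Where several start sites lie close together it would put more than 20% there, and this was not adjusted for. The 100 bp just upstream held 16.1% of summits and the 100 bp just downstream 7.05%, against 28.3% and 13.8% at coding promoters. The next 100 bp held 11.3% upstream and 6.20% downstream, and beyond 200 bp each 100 bp held between 2.63% and 5.99%. In all, 59.6% of summits lay upstream, against 67.5% at coding promoters.

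The share within 200 bp was highest at snRNAs (56.1%, 23 of 41) and misc RNA (55.6%, 10 of 18). It was 50% at processed transcripts, 49.0% at antisense transcripts and 45.6% at lincRNAs, whose intervals all lay above 20% (38.1 to 61.9%, 40.9 to 57.2% and 40.4 to 51.0%). The 20% is that of a single start site, and the number of start sites per gene was not compared between classes. For TEC genes it was 27.3% (19.2 to 36.6%), with 71.8% of summits upstream spread over the whole kilobase. Processed pseudogenes had 21.7% (12.7 to 33.3%) and miRNAs 11.9% (5 of 42, 3.98 to 25.6%), both with 20% inside the interval. No miRNA summit lay in the 100 bp just upstream of the hairpin.

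The gathering near the start was also seen in the highest 26844 peaks of each replicate's own list. Within 200 bp lay 41.3% of the noncoding start-site peaks called that way in replicate 1 and 36.8% in replicate 2, against 64.9% and 55.5% at coding promoters. LincRNAs had 45.4% and 44.3%, antisense transcripts 52.7% and 40.5%, and processed pseudogenes 22.1% and 14.8%. The miRNA share was 9.30% in replicate 1 and 22.7% in replicate 2, so its place below 20% did not hold in both.

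**Figure D3:**
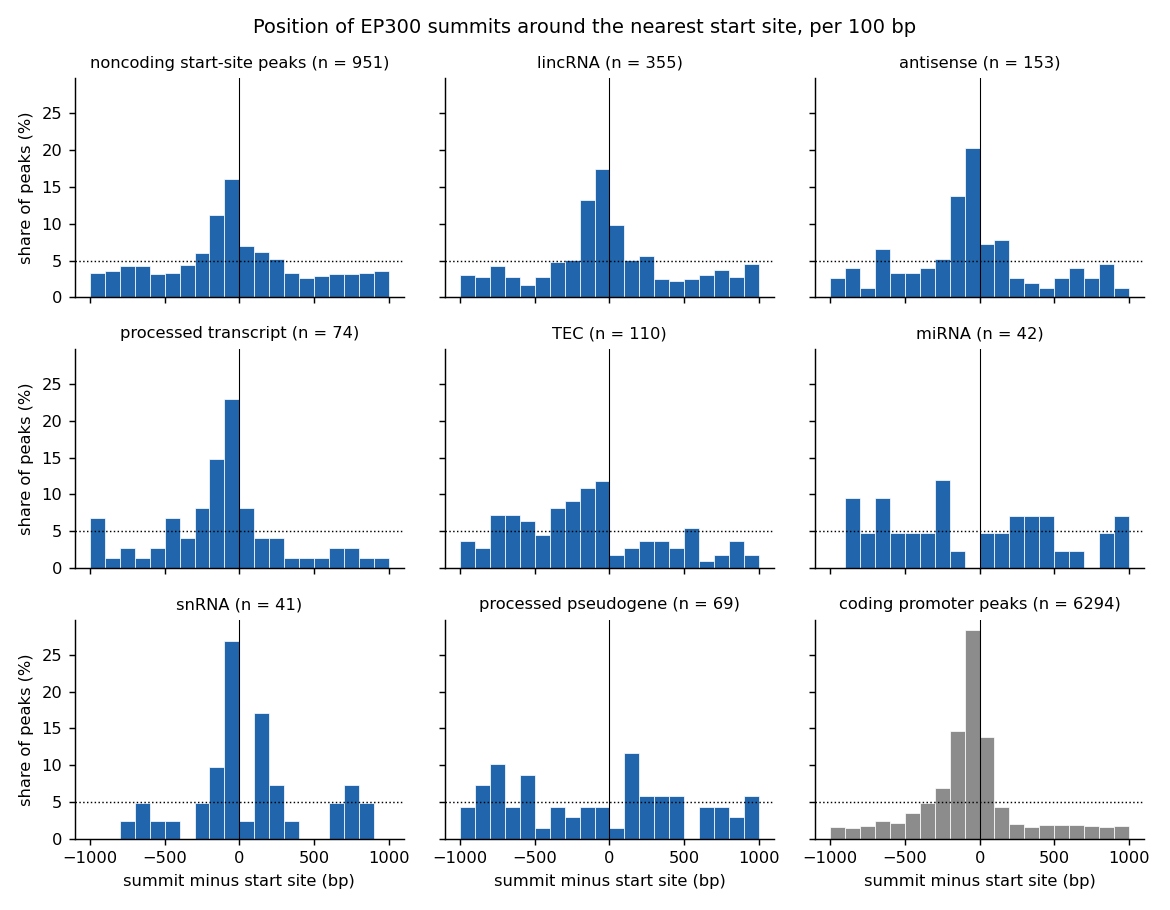
Share of EP300 summits (%) in each 100 bp around the nearest start site, with negative distances upstream. Blue panels are noncoding start-site peaks and their classes, and the grey panel is coding promoter peaks. The dotted line is the 5% of an even spread around a single start site. The bin just upstream of the start holds 16.1% of noncoding start-site summits against 28.3% at coding promoters, while miRNA and processed pseudogene summits show no such bin.

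Over all classes together, summits close to the start had a higher median signal and fewer GATA matches than those farther away, but the classes differed. Within 200 bp the median signal was 40.8, against 36.8 beyond. At lincRNAs it was 44.9 against 35.8 and at antisense transcripts 38.4 against 34.5, while at TEC genes it was 34.6 against 37.2, at processed transcripts 35.8 against 39.9 and at miRNAs 30.1 (5 summits) against 33.8. The GATA consensus was in 14.3% of windows within 200 bp and in 22.1% of those beyond. At lincRNAs the shares were 11.1% and 24.4%, while at antisense transcripts they were 21.3% and 14.1%, at other pseudogenes 18.8% and 14.3%, and at snRNAs 8.70% and 0%. CpG-rich windows (150 bases on either side of the summit, with GC of at least 50% and a CpG observed over expected ratio of at least 0.6) made up 14.8% within 200 bp and 5.84% beyond. The strongest 10% of all peaks held 8.03% of the close summits and 10.3% of the others.

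Most of the windows at these summits, which lie up to 1 kb from the start site, were not CpG-rich. Of the 951 windows 90 (9.46%, interval 7.68 to 11.5%) were CpG-rich, against 46.9% at coding promoter peaks and 1.15% at distal peaks. Where the peak itself covered a noncoding TSS, and no coding TSS, the share was 22.1% of 475 peaks. These could lie within 1 kb of a coding TSS, so they are not a part of the 951. Among the 951, 14.8% of the 386 windows within 200 bp of the start were CpG-rich. Processed transcripts had the highest share (21.6%, 16 of 74), followed by snoRNAs (18.8%, 3 of 16), TEC genes (11.8%), other pseudogenes (10.8%, 4 of 37) and lincRNAs (10.1%). Processed pseudogenes had 0 of 69, which allows up to 5.21%. The CpG-rich windows were closer to their starts: 63.3% of their summits lay within 200 bp, against 38.2% of the CpG-poor ones. At coding promoters these shares were 81.4% and 43.2%. Among CpG-poor windows the noncoding and coding start sites were thus nearer to each other, at 38.2% and 43.2%, than over all windows, at 40.6% and 61.1%.

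GATA matches were more frequent than at coding promoter peaks and less frequent than at distal peaks. Motifs were searched on both strands within 50 bases of the summit. The GATA motif, written AGATAA, the site of GATA1 in red cell precursors and of other GATA factors, was in 18.9% of the windows (interval 16.5 to 21.6%), against 10.5% at coding promoter peaks, 26.3% at distal peaks and 22.3% of all peaks. GATA with an E-box partner site, the composite bound with TAL1, was in 6.63%, against 4.39%, 10.8% and 9.16%. CEBP (TTGCNNAA), bound by liver and myeloid factors, was in 10.4%, against 5.99%, 9.80% and 8.93%. The GATA share thus lay above coding promoters and below distal peaks, outside the interval on each side, and the CEBP share lay above coding promoters, with distal peaks inside its interval.

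KLF, SP and ETS matches were less frequent than at coding promoter peaks and more frequent than at distal peaks. NFY matches were less frequent than at coding promoter peaks. KLF (CCNCNCCC) was in 13.2%, against 23.2% at coding promoter and 10.8% at distal peaks. SP (GGGCGGG) was in 4.10%, against 10.9% and 1.33%. NFY (CCAAT) was in 9.88% (interval 8.06 to 11.96%), against 17.2% and 11.9%, with distal peaks inside its interval. ETS (CCGGAAGT) was in 0.841%, against 3.69% and 0.276%. A match of these letters does not show that a factor was bound.

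Matches also differed with the CpG content of the window. Among CpG-rich windows, GATA was in 2.22% at noncoding start-site peaks (2 of 90) and in 2.67% at coding promoter peaks, and KLF was in 27.8% and 31.5%. Among CpG-poor windows GATA was in 20.7% and 17.4%, and KLF in 11.7% and 15.9%. Within each kind of window the sets lay closer to each other than over all windows. SP matches were in 22.2% of CpG-rich and 2.21% of CpG-poor noncoding start-site windows.

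**Figure D4:**
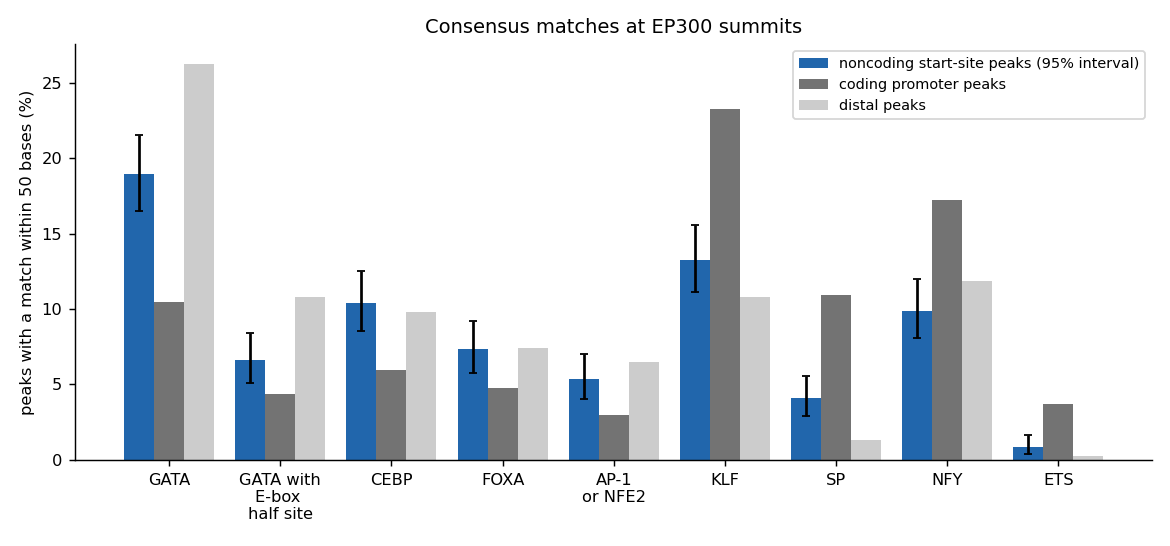
Share of peaks (%) with a consensus match within 50 bases of the summit, for 9 motifs, with noncoding start-site peaks left (95% Clopper-Pearson interval), then coding promoter peaks and distal peaks. GATA is in 18.9% of noncoding start-site peaks, against 10.5% and 26.3%, and SP in 4.10%, against 10.9% and 1.33%.

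Peaks with GATA had a higher median signal. The median signal was 55.4 with a GATA match and 35.7 without, and over all peaks it was 53.9 and 35.5. Among the 89 noncoding start-site peaks in the strongest 10%, 46.1% had GATA, against 48.1% of all peaks in that range. CEBP was in 2.25% of the 89. Among the 8 classes with the most peaks, GATA was most frequent at processed pseudogenes (34.8%, 24 of 69) and least at snRNAs (4.88%, 2 of 41), with lincRNAs at 18.3%, antisense transcripts at 17.6% and processed transcripts at 13.5%.

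Most of the summits lay outside protein-coding genes. By position 669 (70.4%) were intergenic, 256 (26.9%) in an intron and 26 (2.73%) in an exon of a protein-coding gene, against 45.4%, 44.8% and 9.77% of all peaks. The label lincRNA itself asks for an intergenic gene, and 96.6% of lincRNA summits were intergenic, against 37.9% of antisense and 44.6% of TEC summits. The median distance to a coding TSS was 16.8 kb, against 14.8 kb at distal peaks. Summits in repeat sequence made up 9.25%, against 9.35% of all peaks.

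A minority of the noncoding starts lay beside a coding gene. Within 5 kb of a coding TSS were 216 summits (22.7%). At 145 of them (67.1%) the noncoding transcript was on the opposite strand, and at 81 (37.5%) the 2 start sites faced away from each other. The remaining 71 (32.9%) were on the same strand. The median signal changed little with this distance, at 39.1 for 1 to 2 kb, 38.5 for 2 to 5 kb, 37.5 for 10 to 50 kb and 39.5 over 100 kb. The share of summits within 200 bp of the noncoding TSS was 33.3% at 1 to 2 kb from a coding TSS and 43.1% at 10 to 50 kb.

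The 12 strongest peaks were at little-known genes. They had 6 intergenic and 6 intronic summits, 7 had a GATA match, 1 was CpG-rich, and 3 lay within 200 bp of the TSS. All 12 were in the conservative list and among the highest peaks of both replicates. Gm17669, a processed pseudogene in an intron on chromosome 18, had the highest signal, 529, with 307 in replicate 1 and 224 in replicate 2, and ranked 23 of all peaks in the optimal list. Its summit lay 743 bp upstream of the annotated start, in repeat sequence. Gm14453, an antisense transcript 12.2 kb from Rbm38, an RNA-binding protein gene, had 471, with 289 in replicate 1 and 180 in replicate 2.

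The other high ones were of several classes. Gm12529 (processed pseudogene) had 449, the sense intronic 4930405O22Rik, within Fbxl17, 444, and the processed transcript Gm27252, the CpG-rich one, 393. Among lincRNAs Gm31452 had 421, with 257 in replicate 1 and 164 in replicate 2, and its summit lay 44 bp upstream of the TSS. Gm8013 had 379, with 224 and 154, at 71 bp upstream of its start and 1.77 kb from the strongest peak of the whole list (signal 633), which has no start site within 1 kb. The lincRNAs Gm43121, 50.5 kb from Tent5c, and Gm49024 had 366 and 358.

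Below these stood Gm28857, Gm24204 and Gm17940. The antisense Gm28857 had 352, with 225 in replicate 1 and 125 in replicate 2, and lay 146 bp upstream of its start and 1.20 kb from a coding TSS. The snRNA gene Gm24204 had 346, and its summit lay 699 bp from the start, in an intron of a coding gene. The processed pseudogene Gm17940 had 331. The 12 peaks ranked within the first 334 of 26844, and 10 noncoding start-site peaks stood in the highest 1% of the list.

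The strongest peak of each of the other classes with at least 5 peaks was weaker. Gm45206 led the TEC genes with 308, Cyp4b1-ps2 the other pseudogenes with 286, Gm23954 misc RNA with 255 and Traj15, a joining segment of the T cell receptor alpha locus, the receptor segments with 254. Mir5123 led the miRNAs with 150, Gm23772 the snoRNAs with 85.9 and Scarna2 the rRNA and scaRNA genes with 79.6. All 7 were found in both replicates.

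A list of 95 known noncoding genes was chosen with earlier results of these data known. It gave 31 with a noncoding start-site peak, beside the background of 2.92% given above. Because of that choice the counts of this list and of its groups below are a description, to be read beside the same 2.92%. That share pools all noncoding classes. It was higher for lincRNAs (6.00%), antisense transcripts (5.99%) and processed transcripts (12.03%), to which many of the listed genes belong. Another 8 (Tug1, Gas5, Zfas1, Snhg1, Snhg9, Rmrp, Rpph1 and Ttc39aos1) had a summit that also lay within 1 kb of a coding TSS, 48 had none within 1 kb, 7 symbols were not in GENCODE M21 on these chromosomes, and Snhg11 is protein_coding there. The signal of the strongest peak at each of the 31 ran between 24.2 and 177, with a median of 37.3, against 38.5 over all noncoding start-site peaks. At 14 of them it lay within 200 bp of the TSS, at 30 it was found in both replicates, and at 10 it was CpG-rich.

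**Figure D5:**
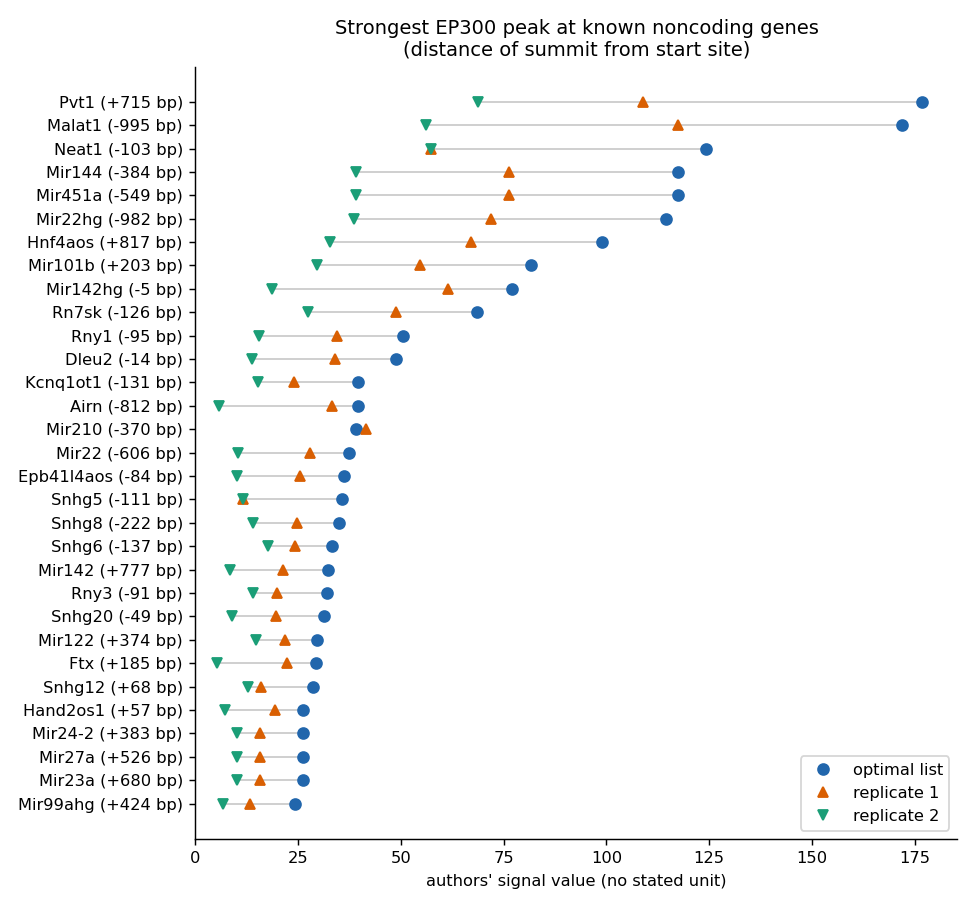
The authors' signal value (no stated unit) of the strongest noncoding start-site peak at 31 known noncoding genes, in the optimal list (circles), replicate 1 (upward triangles) and replicate 2 (downward triangles), with the summit's distance from the start site in bp beside each name. Pvt1 and Malat1 stand highest at 177 and 172, most genes lie below 50, Mir210 has no value in replicate 2, and Mir144 and Mir451a share a peak, as do Mir23a, Mir27a and Mir24-2.

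Nuclear long noncoding RNAs had 4 of 13 genes with a peak, beside the background of 2.92%, and 3 of these were among the strongest 10% of all peaks. Malat1, an abundant RNA of nuclear speckles, is a minus-strand gene at chr19:5795690-5802672 and had 4 summits. The strongest, 995 bp upstream of the start, had 172, with 118 in replicate 1 and 56.0 in replicate 2. The one 15 bp upstream had 149, with 100.1 and 47.5. The others, 221 bp upstream and 907 bp downstream, had 45.5 and 21.7, and the last was not found in replicate 2. Another strong peak, 234, lay within the Malat1 gene near the start of Gm27694, a misc RNA gene chosen here after its value was seen.

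Neat1, the RNA that scaffolds paraspeckles, shares its start region with Frmd8os on the other strand. Its strongest summit, 103 bp upstream of the Neat1 start, had 124, with 57.3 in replicate 1 and 57.2 in replicate 2. It lay 42 bp from a Frmd8os start and was CpG-rich, so the counts above place it under antisense. Pvt1, downstream of Myc, had 177 at an internal start (109 in replicate 1 and 68.8 in replicate 2) and 49.4 at another, where replicate 2 had no peak. The Pvt1 summits lay 236 and 112 kb from the Myc TSS. Ftx, of the X-inactivation centre, had 29.4, with 22.4 and 5.18. Xist and Tsix, the RNAs of X inactivation itself, had no summit within 1 kb, and the nearest lay 63.7 and 99.3 kb away.

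Imprinted genes had 2 of 9 with a peak, beside the background of 2.92%. Kcnq1ot1, an antisense RNA that silences its imprinted neighbours, had 39.5 at 131 bp upstream of its start, with 24.1 in replicate 1 and 15.1 in replicate 2. Airn, the antisense RNA of the Igf2r locus, had 3 summits with 39.5, 38.4 and 13.5. The first 2 had 5.68 and 8.03 in replicate 2, against 33.2 and 29.2 in replicate 1. H19, an abundant RNA of fetal liver, and Meg3 had none within 1 kb, and the nearest summits lay 7.33 and 103 kb away.

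Host genes of snoRNAs, which carry snoRNAs in their introns, had 6 of 18 with a noncoding start-site peak, beside the same 2.92%, and 4 with a summit shared with a coding gene. The strongest summits at Snhg5, Snhg6, Snhg8, Snhg12, Snhg20 and Epb41l4aos had signals of 35.8, 33.3, 35.0, 28.7, 31.3 and 36.1. All 6 lay between 222 bp upstream and 68 bp downstream of the start and all 6 were CpG-rich. In replicate 1 they had between 11.7 and 25.5 and in replicate 2 between 8.92 and 17.5, so all were found in both at moderate signal.

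Of 7 genes of RNA polymerase III and ribozyme RNAs, 3 had a noncoding start-site peak, 2 a summit shared with a coding gene and 2 none within 1 kb. Rn7sk, the 7SK RNA that holds the elongation factor P-TEFb inactive, had 68.4, with 48.8 in replicate 1 and 27.4 in replicate 2, at 126 bp upstream. The Y RNA genes Rny1 and Rny3 had 50.4 and 32.0, at 95 and 91 bp upstream. All 3 summits were CpG-poor. Rmrp and Rpph1, the RNAs of RNase MRP and RNase P, had 67.4 and 78.7 at starts they share with coding genes. Terc, the telomerase RNA, and the vault RNA gene Vaultrc5 had their nearest summits 14.3 and 26.2 kb away.

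Spliceosomal snRNA genes were looked at after their values were seen. Rnu11, the U11 RNA of the minor spliceosome, had 121 at 8 bp upstream, with 70.7 in replicate 1 and 53.6 in replicate 2. Rnu1a1 (U1) had 117 at 31 bp upstream, with 76.8 and 37.5. Rnu5g (U5) had 97.0 at 24 bp upstream and Rnu2-10 (U2) 28.8 at 15 bp upstream. The 4 Rnu3b copies of the U3 snoRNA had between 12.9 and 43.2, with summits at least 248 bp downstream. These genes have near-identical copies, and the sources used here do not give how reads that match several copies were placed, so these values are uncertain.

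Among miRNA genes of blood and liver, 10 of 27 had a noncoding start-site peak. The share was 2.92% (54 of 1850) over miRNA genes with every TSS over 1 kb from coding ones. Mir144 and Mir451a, a cluster made in red cell precursors, shared a summit 384 bp upstream of the Mir144 hairpin with a signal of 117, with 76.3 in replicate 1 and 39.1 in replicate 2. A second summit nearer to it had 15.5. This was the highest value among the 10. Mir101b had 81.8 at 203 bp downstream of its hairpin start, with 54.7 and 29.7. Mir22 had 37.3, and Mir210, a hypoxia-induced miRNA, 39.1 with no peak in replicate 2. Mir122, the most abundant miRNA of hepatocytes, had 29.6, with 21.8 and 14.8. Mir23a, Mir27a and Mir24-2 shared a summit of 26.1.

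Of the 17 without one, Mir148a, Mir150, Mir21a and Mir223 had the nearest summit 1.16, 2.70, 3.02 and 3.04 kb from the hairpin, and Mir192 and Mir194-2, a liver cluster, 3.93 and 4.13 kb. Their host promoters were not looked for beyond the 1 kb rule. Host genes of miRNAs had 4 of 10 with a peak, beside the background of 2.92%. Mir142hg, the host of a miRNA of all blood cells, had 77.0 at 5 bp upstream of its start, with 61.4 in replicate 1 and 18.7 in replicate 2, and 51.3 at 797 bp upstream, while Mir142 itself had 32.1 at 777 bp from the hairpin start. Mir22hg had 114 at 982 bp upstream, with 71.9 and 38.5. Dleu2, host of Mir15a and Mir16-1, had 48.8 at 14 bp upstream, and Mir99ahg 24.2. The hairpins of Mir15a and Mir16-1 had their nearest summits 24.5 and 24.7 kb away.

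Developmental antisense and lincRNA genes had 2 of 11 with a peak, beside the background of 2.92%. Hnf4aos, antisense to the liver nuclear receptor gene Hnf4a, had 99.0 at 817 bp downstream of its start, with 67.0 in replicate 1 and 32.8 in replicate 2. Hand2os1, beside the heart regulator Hand2, had 26.2 at 57 bp, with 19.3 and 7.19. Hotair, Hottip, Fendrr, Hoxaas2, Hoxaas3 and Wt1os, which are known from limb, trunk, lung or kidney, had no summit within 1 kb, and the nearest lay between 19.3 and 176 kb away. The antisense gene Hnf1aos1 had none within 1 kb either, with the nearest 1.26 kb away.

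The values at the limits of the rule are given once, as a description. Peaks just inside, at 995 to 999 bp from a noncoding TSS, had signals of 63.2, 38.5, 34.1 and 33.7. The strongest Malat1 summit, with 172, also lay 995 bp from its start. The nearest outside, at 1001 to 1006 bp, had 61.0, 8.60, 33.3 and 20.02. On the coding side, the peaks just kept, at 1002 to 1033 bp from a coding TSS, had 39.6, 22.9, 96.5 and 29.7, and those just left out, at 976 to 996 bp, had 37.3, 20.2, 41.2 and 25.4.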

How the data were processed

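EP300 ChIP-seq peak lists on mm10 from 2 replicates of 1 group were used. In the deposited lists each peak has a position, a summit and the authors' signal value. Both IDR lists were made from the replicates together, per the deposited descriptions, so their values are no independent check on the replicates. The aligner, peak caller, IDR threshold and their versions were not given in the sources used here. The lists hold 0 columns of other series, and no read counts, so intervals cover the counting of peaks or genes only.

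Summits were placed against GENCODE M21 (GRCm38) with all transcripts, with python 3.11.15, pandas 2.3.3, numpy 2.4.6, scipy 1.17.1 and pysam 0.24.0, after a check on simulated summits. Every peak ended inside the reference chromosome on 20 of 20 chromosomes. Peaks of the optimal list were matched to the replicate lists by an overlap of at least 1 base. They were matched to the conservative list by identical position and summit. With a single group there is no comparison of conditions, and no test was run. The text names the 12 strongest peaks, the strongest of each class with at least 5 peaks, every gene with a peak among 95 known noncoding genes, and those at the limits of the rule. The regions, gene lists and motifs were chosen with earlier results of these data known, and 12 alternatives were tried. A gene of these lists is not reported here.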

Additional observations from a re-analysis of the deposited data

How the results depend on the processing

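Across 12 alternatives the number of noncoding start-site peaks ran between 475 and 1449 and the lincRNA share between 34.9 and 48.6%. With 500 bp in place of 1 kb the peaks were 2.57% of the list, with 60.1% within 200 bp and 13.2% CpG-rich. With 2 kb there were 1449 (5.40%), with 24.8% and 5.87%. When the peak itself had to cover a noncoding TSS there were 475 (1.77%), with 100% within 200 bp by construction, 22.1% CpG-rich and a log2 difference from coding promoter peaks of -0.05. In that setting a peak could not cover a coding TSS but could lie within 1 kb of one. Without TEC genes and pseudogenes the peaks were 2.75%, with 48.6% lincRNA and 44.1% within 200 bp. In the top 50% of peaks there were 478, with 95.4% among the highest of both replicates and a log2 difference from distal peaks of -0.09, and in the conservative list 81.7% were among the highest of both. Without one replicate the share within 200 bp ran between 36.8 and 41.3%. The cause of these shifts was not tested beyond what each setting builds in. No paired analysis was possible because there is a single group. Read depth is unknown, so weak peaks cannot be weighed by their counts, and the signal values have no stated scale.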

Other observations

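Some peaks lay at genes outside the list of known RNAs and were picked out after their values were seen. Bloodlinc, a lincRNA known from red cell precursors, had a signal of 53.0 with 33.7 in replicate 1 and 18.02 in replicate 2. Its summit lay 990 bp downstream of the Bloodlinc start, close to the 1 kb limit, and 9.83 kb from Slc4a1, the gene of the red cell anion exchanger. Lockd, beside the cell cycle inhibitor gene Cdkn1b, had 23.0 at 751 bp upstream of its start, in a CpG-rich window, with 10.3 and 13.1. Mirt1 had 91.1 at 49 bp upstream of its start, with 57.0 and 32.5, and Junos, antisense to the AP-1 gene Jun, had 39.5 at 138 bp, with 30.8 and 7.64.

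Receptor gene segments of lymphocytes, whose annotated start is that of a gene segment, held 9 peaks and their pseudogenes 2. Beside Traj15, Tcrg-V7 had 100.3, with 74.0 in replicate 1 and 31.5 in replicate 2, and the others lay between 24.1 and 59.4. By chromosome the noncoding start-site peaks were between 2.28% of the peaks on chromosome 18 and 4.45% of those on chromosome 6.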
